A study of Mus musculus with 9 samples.

Results

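The CD28 family of receptors was followed through RNA sequencing of ICOS+ CD4 T cells sorted from mouse tumours after checkpoint antibody treatment. The members were Cd28, Icos, Ctla4, Pdcd1 and Btla, taken by gene symbol as 5 of the 45808 genes in the count table. Their measured values played no part in choosing them, although earlier results of these data were known. Ctla4 and Pdcd1 encode the targets of the antibodies given.

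The mice were of strain C57BL/6J and carried tumours of MC38, a mouse colon adenocarcinoma cell line, and cells were taken on day 12 after tumour cell injection. The groups were anti-CTLA-4 (3 mice), anti-PD-1 (3 mice) and Control (3 mice), with 1 library per mouse. What the Control mice received, the antibody clones and doses, and how many cells were sorted is not stated in the sources used here. Every library came from a gate on ICOS protein, so the receptor encoded by Icos was also the marker used to collect the cells, and its transcript cannot serve as a finding about who expresses ICOS. RNA, not surface protein, was measured.

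Receptors of this family sit on the T cell surface and set how strongly a cell answers its antigen receptor. CD28 and ICOS promote activation through PI3-kinase and related signals, whereas CTLA-4, PD-1 and BTLA restrain it. CTLA-4 shares the ligands CD80 and CD86 with CD28 and binds them more tightly, ICOS binds ICOS ligand, PD-1 binds PD-L1 and PD-L2, and BTLA binds the TNF receptor family protein HVEM. Regulatory T cells, which are common in tumours, carry much CTLA-4 and ICOS.

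Levels are given as CPM, the counts of a gene scaled to a common total of counts in genes per library. The libraries held 25530333 to 41508589 counts in genes, so that 3 counts, taken as the limit that a count of 0 allows, stood at 0.0723 to 0.118 CPM. They were made by amplifying little RNA, and single genes came and went between libraries: 83.5% of the 7858 genes tested were under 1 CPM in at least 1 library. The second anti-CTLA-4 library stood apart, with 2662 genes at 5 CPM or more against 4209 to 6309 in the other 8. Its Cd4 level was 24.5 CPM, against 308 to 808 CPM in the others. Its 12 macrophage or monocyte markers summed to 4990 CPM (1 of 12 at 0) and its 5 fibroblast markers to 1587 CPM (1 of 5 at 0), against 186 to 853 CPM and 31.4 to 376 CPM in the other libraries. Of these markers, 8 of 12 and 3 of 5 reached 5 CPM there, while C1qa (0.0843 CPM), Fcer1g (0.0562 CPM) and Dcn (0.0281 CPM) were near 0. Its T cell markers summed to 2040 CPM, against 2442 to 3440 CPM, and 5 of 9 reached 5 CPM, against 8 or 9 elsewhere. Cd3e and Cd5 were at 0.590 and 0.731 CPM there, while Cd3d was at 696 CPM. Cd8a was at 0 in all 9 libraries, as were the 3 NK cell markers, and Cd8b1 was above 1 CPM only in the third anti-PD-1 library (125.2 CPM). Values without this library are given beside the changes that it moved most.

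Cd28, Icos and Ctla4 were abundant and present in all 9 libraries, while Pdcd1 and Btla were detected in some mice of every group and close to 0 in others. No member passed the test in any of the 3 comparisons, each made with edgeR's quasi-likelihood test and Benjamini-Hochberg adjustment over 7858 genes at 0.05. That threshold was passed by 0.369% of all genes tested for anti-CTLA-4 against Control, 0.0764% for anti-PD-1 against Control and 0.827% for anti-CTLA-4 against anti-PD-1. A single test for any difference between the 3 groups gave adjusted p = 0.814 for Icos and 0.866 for Cd28 by edgeR, and 1.0 for the other 3 members. Such p-values do not show that the groups were alike, since the standard errors of the members' log2 fold changes ran from 0.46 to 3.33. In bulk RNA, fewer cells that express a receptor and less of its RNA per cell cannot be told apart.

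Cd28, the receptor of the main costimulatory signal, had 3461, 564 and 2043 CPM in anti-CTLA-4 mice, 3410, 3843 and 3262 CPM in anti-PD-1 mice, and 3539, 3032 and 2476 CPM in Control mice. The low anti-CTLA-4 value came from the library that stood apart, and the groups overlapped in all comparisons. Cd28 averaged 2023 ± 1449 CPM under anti-CTLA-4, 3505 ± 302 CPM under anti-PD-1 and 3016 ± 532 CPM in Control mice (SD, n = 3 each). The fitted log2 fold change was -0.21 (SE 0.46, adjusted p = 1.0, edgeR) for anti-CTLA-4 against Control. Without the second anti-CTLA-4 library the change was 0.03, so its sign rested on that library. For anti-PD-1 against Control the change was 0.48 (SE 0.46, adjusted p = 1.0, edgeR).

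Icos, which encodes the inducible costimulator, had 1986, 507 and 1706 CPM in anti-CTLA-4 mice, 2547, 2876 and 2869 CPM in anti-PD-1 mice, and 1851, 2042 and 2866 CPM in Control mice. Against Control, the fitted change of Icos was -0.25 (SE 0.51) for anti-CTLA-4 and 0.55 (SE 0.51) for anti-PD-1, and neither passed the test. Every anti-CTLA-4 library lay below every anti-PD-1 library, and both groups overlapped the Control mice. Icos was the only member of the 5 that separated these treated groups, where 9.76% of all genes tested did not overlap and 6.95% were lower without overlap. The fitted change of Icos for anti-CTLA-4 against anti-PD-1 was -0.80 (SE 0.52), which did not pass the test (adjusted p = 0.501, edgeR). Leaving out single libraries gave -0.97 to -0.64 for this change, while scaling by median ratios (RLE) turned it to 0.67. Cd28 in the same comparison stood at -0.69 (SE 0.46, adjusted p = 0.531, edgeR) and turned to 0.58 under RLE scaling. Leaving out the second anti-CTLA-4 library moved this Cd28 change to -0.44 and leaving out the first moved it to -1.10, which were the ends of the range over single libraries. Since all cells were gated on ICOS, the Icos values describe the sorted cells only.

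Ctla4, which encodes the inhibitory receptor that competes with CD28 for CD80 and CD86, had 641, 499 and 882 CPM in anti-CTLA-4 mice, 590, 653 and 464 CPM in anti-PD-1 mice, and 755, 1124 and 1086 CPM in Control mice. In CPM, all 3 anti-PD-1 libraries lay below all 3 Control libraries, and the anti-CTLA-4 mice overlapped both. CPM leaves out the normalization factors of the fit, which were 0.830 for the second anti-PD-1 library and 1.18 for the first Control library. Divided by these factors, the second anti-PD-1 value lies above the first Control value, so these groups overlap once the factors are applied. Ctla4 was the 1 member of 5 whose CPM did not overlap between anti-PD-1 and Control, where 10.8% of all genes tested did not overlap and 7.33% were lower without overlap. It averaged 569 ± 96.0 CPM under anti-PD-1 and 988 ± 203 CPM in Control mice (SD, n = 3 each). The fitted change was -0.52 (SE 0.79) for anti-PD-1 against Control and did not pass the test (adjusted p = 1.0, edgeR). It stayed negative under all 19 alternatives, from -0.88 to -0.29, without passing the threshold in any of the 18 that gave an adjusted p.

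For the target of the anti-CTLA-4 antibody, the transcript averaged 674 ± 194 CPM under anti-CTLA-4 and 988 ± 203 CPM in Control mice (SD, n = 3 each). The fitted log2 change of Ctla4 was nevertheless 0.13 (SE 0.78, adjusted p = 1.0, edgeR), the opposite sign to the CPM means. The normalization factor of the second anti-CTLA-4 library was 0.407, against 0.830 to 1.26 in the others, which raised its normalised Ctla4 value. Scaling by library totals gave -0.55 and leaving that library out gave -0.18, so no direction was settled for Ctla4 under its own antibody. Against anti-PD-1 mice, the Ctla4 change under anti-CTLA-4 was 0.65 (SE 0.79, adjusted p = 0.909, edgeR) and positive under all 19 alternatives, from 0.25 to 2.67. It was 0.35 without the second anti-CTLA-4 library.

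Pdcd1, which encodes PD-1, had 0.0985, 262 and 0.0612 CPM in anti-CTLA-4 mice, 164, 24.4 and 116 CPM in anti-PD-1 mice, and 89.5, 46.5 and 0.140 CPM in Control mice. In reads, these were 3, 9321 and 2 counts under anti-CTLA-4, 4190, 806 and 3959 counts under anti-PD-1, and 3717, 1447 and 5 counts in Control mice. Pdcd1 was thus well above the limit of a 0 count in all 3 anti-PD-1 mice, in 1 anti-CTLA-4 mouse and in 2 Control mice. The 1 anti-CTLA-4 mouse with Pdcd1 was the library that stood apart, whose myeloid and fibroblast marker sums were the highest. The part of those markers in its Pdcd1 level was not tested.

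The groups overlapped for Pdcd1 in all comparisons. Its fitted log2 fold change was 2.53 (SE 1.98, adjusted p = 0.741, edgeR) for anti-CTLA-4 against Control and 1.28 (SE 1.90, adjusted p = 0.954, edgeR) for anti-CTLA-4 against anti-PD-1. Without the second anti-CTLA-4 library these became -8.92 (adjusted p = 0.657, edgeR) and -10.17 (adjusted p = 0.523, edgeR), so both signs turned. Both also turned with all 9 libraries kept, to -4.07 and -7.85 by limma's voom with quality weights. Such weights can lower the part of a library that stands apart, so this was no check separate from leaving it out. Both turned too with the replicate number as a block. For anti-PD-1 against Control the change of Pdcd1 was 1.25 (SE 1.90, adjusted p = 1.0, edgeR), and it was positive under all 19 alternatives, from 0.65 to 4.77. Values near 0 in single libraries were common for genes of this abundance: of 2946 genes tested with a mean CPM within 2-fold of that of Pdcd1, 86.3% had at least 1 library under 1 CPM and 30.6% had 3 or more, as Pdcd1 did.

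Btla, which encodes the inhibitory receptor for HVEM, had 48.2, 0 and 16.6 CPM in anti-CTLA-4 mice, 53.2, 0.0906 and 0.0292 CPM in anti-PD-1 mice, and 12.7, 52.0 and 0 CPM in Control mice. It was present in 2 anti-CTLA-4 mice, 1 anti-PD-1 mouse and 2 Control mice. The 2 libraries with no Btla count allow up to 0.0843 CPM under anti-CTLA-4 and 0.0838 CPM in the Control mouse. The groups overlapped throughout, and the fitted changes were 0.16, -0.18 and 0.34 in the 3 comparisons, with SE of 3.33 each (lowest adjusted p = 1.0, edgeR). Of 2999 genes tested of like mean, 92.0% had 3 or more libraries under 1 CPM, and Btla had 4.

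**Figure D1:**
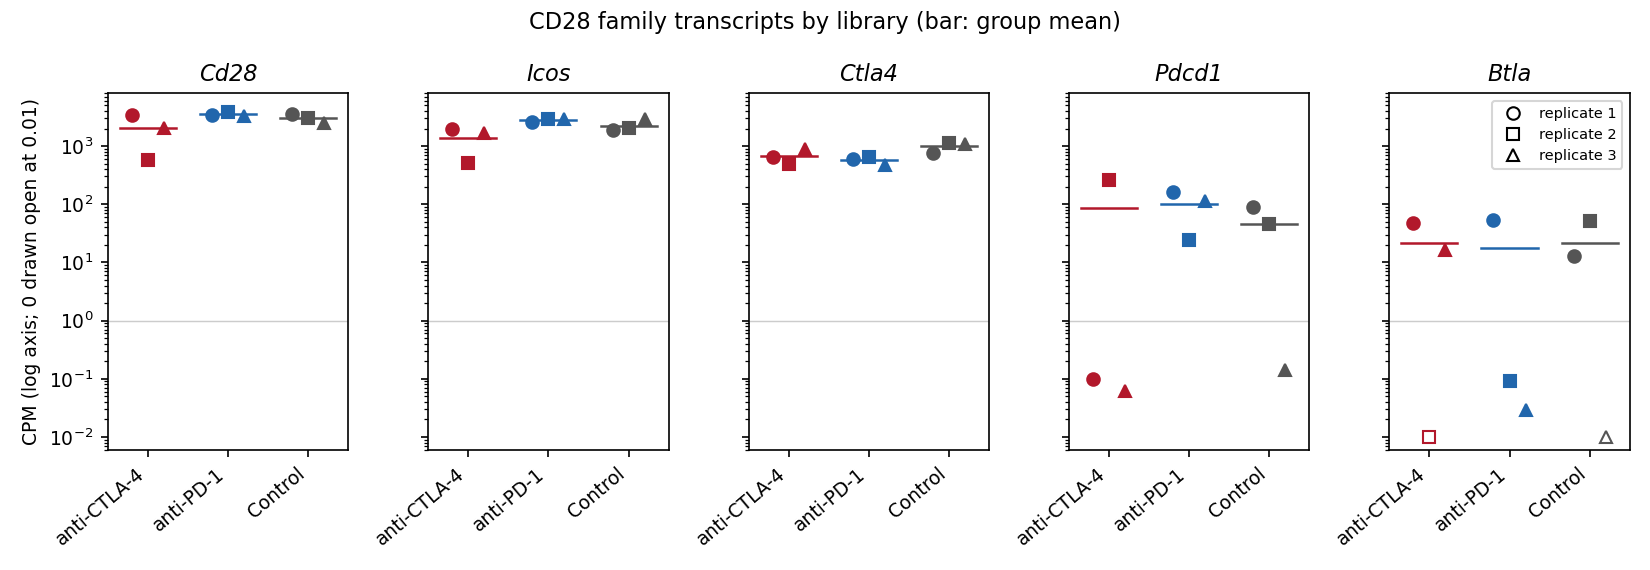
CPM of the 5 receptor genes in each library on a log axis, by group, with the replicate shown by the marker shape, the group mean as a bar and 0 drawn as an open marker at 0.01. Cd28, Icos and Ctla4 stay between 464 and 3843 CPM in all 9 libraries, while Pdcd1 and Btla fall below the grey line at 1 CPM in 3 and 4 libraries.

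**Figure D2:**
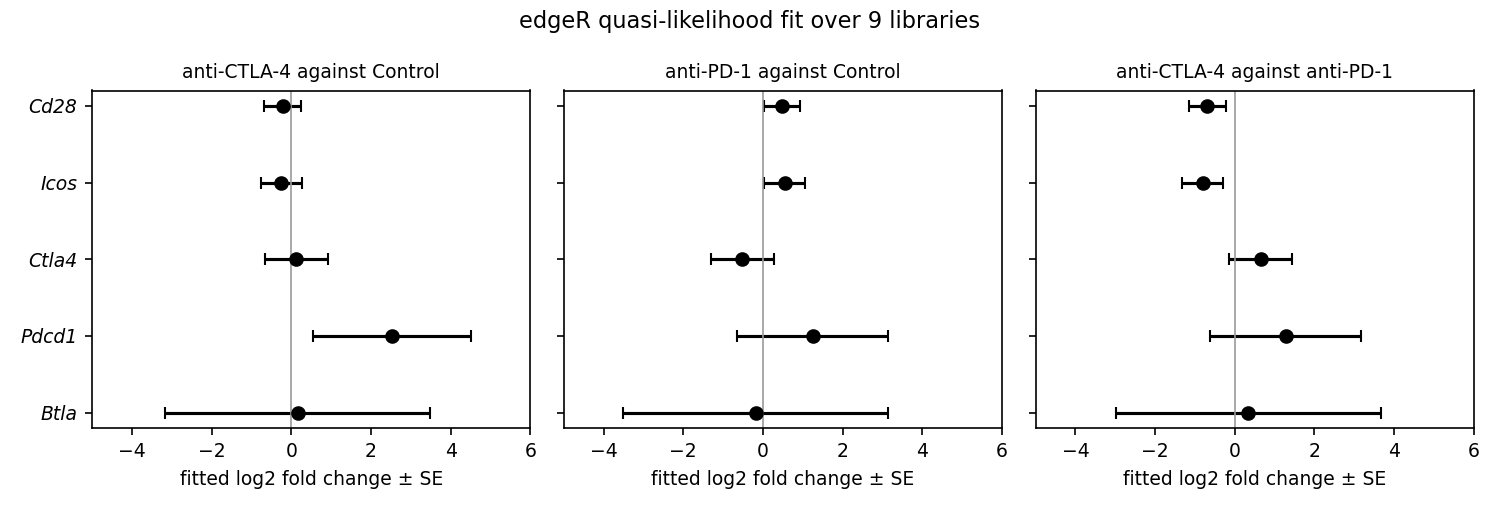
Fitted log2 fold change of each receptor gene with its standard error, in the 3 comparisons, from edgeR's fit over 9 libraries. The bars widen from Cd28 (0.46) to Btla (3.33), and none of the 15 changes passed the threshold.

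Levels of different receptors were compared per exon length, as TPM, which scales counts per exon length to a common total. Over the 9 libraries Icos averaged 1907 ± 693 TPM, Cd28 1421 ± 504 TPM, Ctla4 979 ± 353 TPM, Pdcd1 121 ± 136 TPM and Btla 18.9 ± 22.4 TPM (SD). Icos and Cd28, and likewise Cd28 and Ctla4, were closer than their spread, whereas Pdcd1 and Btla lay far below the other 3 genes, except that Pdcd1 (379 TPM) exceeded Cd28 (258 TPM) in the second anti-CTLA-4 library. Icos was the highest of the 5 in 7 libraries, Cd28 in the first Control library, and Ctla4 in the second anti-CTLA-4 library. That order depends on the length used. With the length of the main annotated transcript in place of all exons, Cd28 also exceeded Icos in other libraries. It stood at 796 against 613 CPM per kb in the first anti-CTLA-4 library, and at 697 against 630 in the second Control library.

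The 5 genes summed to 4392, 1649 and 3733 TPM in anti-CTLA-4 mice, 5256, 4691 and 5127 TPM in anti-PD-1 mice, and 4535, 5252 and 5387 TPM in Control mice. The sums were close to each other in the anti-PD-1 and Control mice and lowest in the second anti-CTLA-4 library. Ctla4 made up 19.2%, 36.3% and 31.2% of the sum under anti-CTLA-4, 15.3%, 15.9% and 12.2% under anti-PD-1, and 21.7%, 29.9% and 27.3% in Control mice. The anti-PD-1 shares were the lowest 3 of the 9. They rest on the same Ctla4 counts as the CPM comparison with Control, where 7.33% of all genes tested were lower without overlap. Pdcd1 took 23.0% of the sum in the second anti-CTLA-4 library and 5.14% or less in the other 8, while Btla took 0.989% or less in all.

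**Figure D3:**
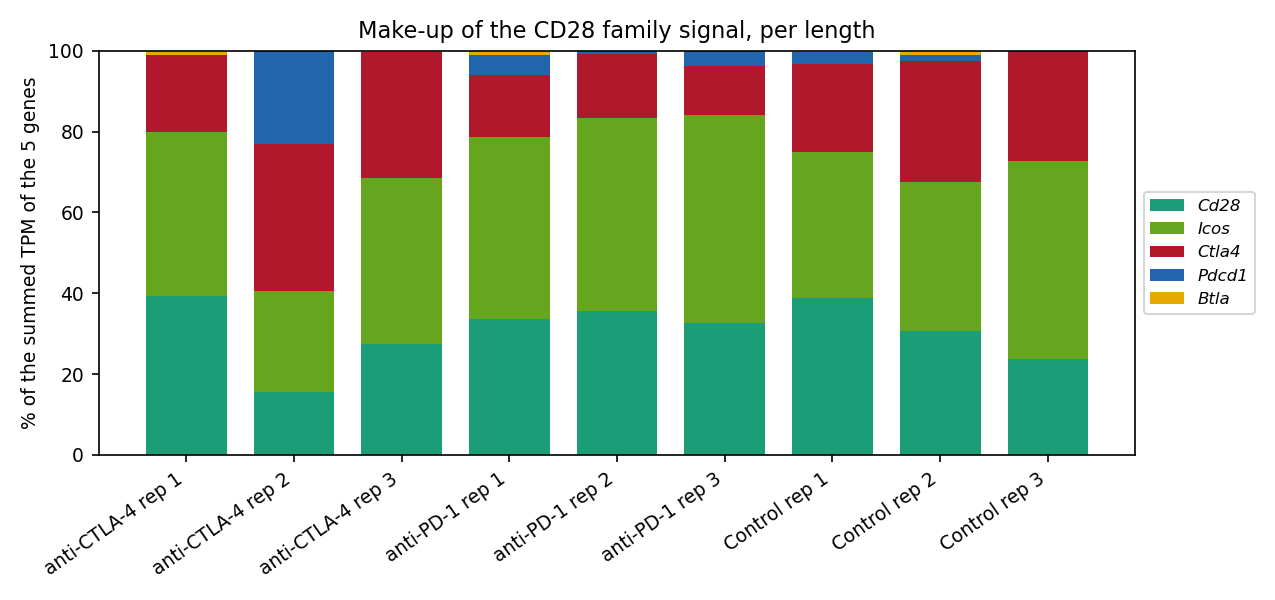
Share of each receptor gene in the summed TPM of the 5 genes, in percent, 1 bar per library. Ctla4 takes 12.2% to 15.9% in the anti-PD-1 libraries and 19.2% to 36.3% in the others, and the second anti-CTLA-4 library has the smallest Cd28 share (15.6%) and the largest Pdcd1 share (23.0%).

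A ratio of 2 receptors within a library does not depend on how libraries are scaled. Ctla4 stood at 32.3%, 98.4% and 51.7% of the Icos CPM in anti-CTLA-4 mice, 23.2%, 22.7% and 16.2% in anti-PD-1 mice, and 40.8%, 55.0% and 37.9% in Control mice. The anti-PD-1 mice lay below all the others, at 20.7% ± 3.91 against 44.6% ± 9.18 in Control mice (SD, n = 3 each). Relative to Cd28, Ctla4 stood at 18.5%, 88.4% and 43.2% in anti-CTLA-4 mice, 17.3%, 17.0% and 14.2% in anti-PD-1 mice, and 21.3%, 37.1% and 43.9% in Control mice. Here too the anti-PD-1 values were the lowest 3, though the first anti-CTLA-4 and first Control mice came close to them.

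The separation between anti-PD-1 and Control in these ratios was not rare among genes. Of 7857 genes tested, 11.2% were lower without overlap relative to Icos and 10.7% relative to Cd28. The ratios were chosen with the levels known, and no test is given for them. Both rest on the same Ctla4 values as the CPM comparison.

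Relative to Foxp3, which encodes the defining transcription factor of regulatory T cells, Ctla4 stood at 21.2%, 55.6% and 30.8% under anti-CTLA-4, 18.5%, 23.0% and 11.9% under anti-PD-1, and 32.0%, 41.2% and 33.6% in Control mice. The anti-PD-1 mice were below the Control mice, but overlapped the anti-CTLA-4 mice. Relative to Foxp3, 11.1% of 7857 genes tested were lower without overlap in anti-PD-1 mice than in Control mice. Foxp3 itself had 3028, 898 and 2863 CPM under anti-CTLA-4, 3186, 2841 and 3901 CPM under anti-PD-1, and 2362, 2727 and 3231 CPM in Control mice. Relative to the summed markers of all T cells, Ctla4 was at 24.0% to 31.3% under anti-CTLA-4, 13.5% to 26.7% under anti-PD-1 and 28.6% to 46.0% in Control mice. The anti-CTLA-4 mice overlapped both other groups, and 8.46% of 7849 genes tested were lower without overlap in anti-PD-1 mice than in Control mice on this scale.

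Icos relative to Cd28 gave no such separation: it was 57.4%, 89.9% and 83.5% under anti-CTLA-4, 74.7%, 74.8% and 88.0% under anti-PD-1, and 52.3%, 67.3% and 115.8% in Control mice. The group means of 76.9% ± 17.2, 79.2% ± 7.61 and 78.5% ± 33.2 (SD, n = 3 each) differed by less than the spread within any group. The ratio was 89.9% in the second anti-CTLA-4 library as well, where Cd28 and Icos were both at their lowest.

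**Figure D4:**
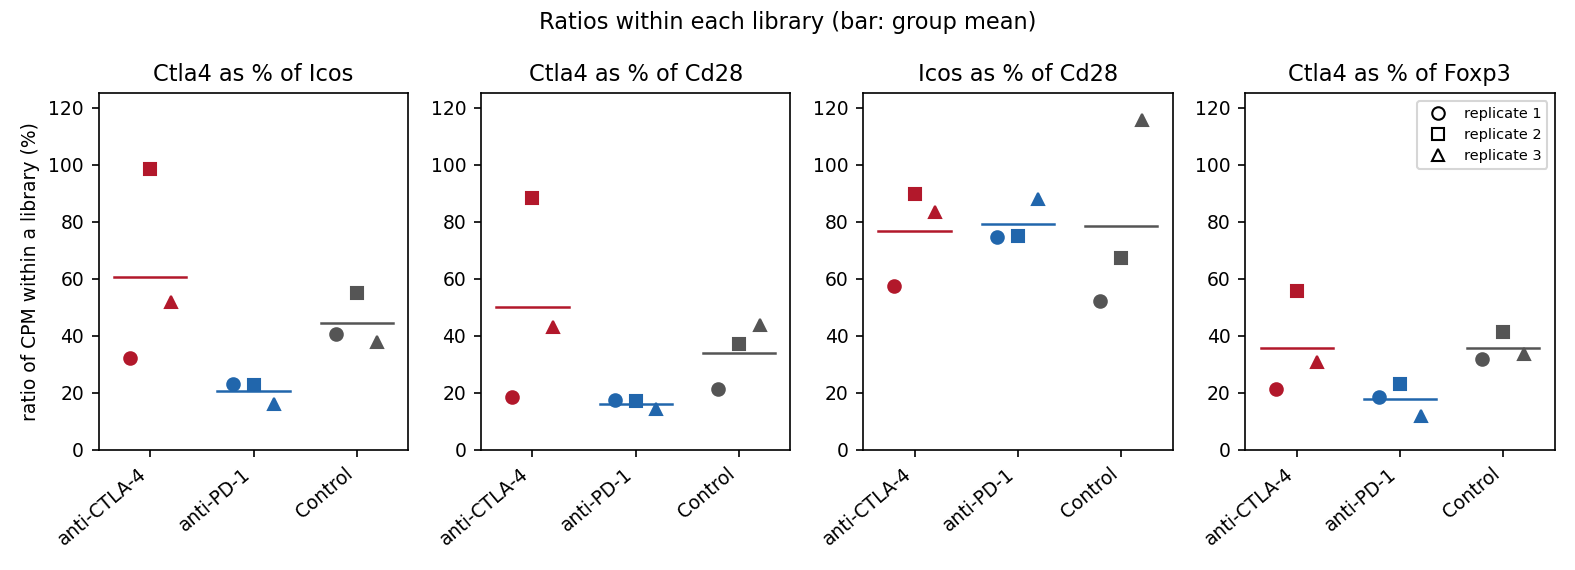
Ratios of CPM within each library, in percent, by group, with the replicate shown by the marker shape and the group mean as a bar. Ctla4 relative to Icos is 16.2% to 23.2% in anti-PD-1 libraries and 37.9% to 55.0% in Control libraries, while Icos relative to Cd28 overlaps between all groups.

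Replicate spread differed widely within the family. The within-group SD of log2 (CPM + 1) was 0.79 for Cd28, 0.65 for Icos and 0.33 for Ctla4, against 3.4 for Pdcd1, 3.04 for Btla and a median of 2.49 over the genes tested. Without the second anti-CTLA-4 library the SD was 0.30 for Cd28, 0.23 for Icos and 0.29 for Ctla4. Cd28, Icos and Ctla4 were among 97 genes (1.23% of those tested) that held at least 400 CPM in every library. Ctla4 had a smaller SD than most genes of its own abundance: of 314 genes with a mean within 2-fold of it, 6.37% had a smaller one. By the SD of log2 (CPM + 1) over all 9 libraries, 94.7% of 38 genes of like mean had a smaller SD than Cd28, and 79.6% of 54 had a smaller SD than Icos.

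The genes most alike to each receptor were taken by the root mean square difference of log2 (CPM + 1), each centred on its own mean, over the 9 libraries and among 5517 candidate genes. For Cd28 they were Ptprc (0.28), the gene of the leukocyte phosphatase CD45, Ptbp3 (0.33), an RNA-binding protein gene, and Icos (0.33). Those of Icos were Tigit (0.24), a coinhibitory receptor gene, Foxp3 (0.25) and the calponin gene Cnn2 (0.28), with Cd28 in place 5. All of these share the low value of the second anti-CTLA-4 library. Without that library the nearest genes of Cd28 were Tpm4, Snx3 and Blmh, with Icos at place 34, and those of Icos were H2-K1, Foxp3 and Ldha.

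Ctla4 followed another set: Actb (0.21), Myh9 (0.28) and Tagln2 (0.29), genes of the actin cytoskeleton. Actb remained the nearest gene without the second anti-CTLA-4 library, followed by Ncor1 and Spn. Icos was in place 228 (0.74) and Cd28 in place 307 (0.83) for Ctla4. Pdcd1 was nearest to Kif1c (0.89), Txlna (0.90) and Fam20b (1.22), and Btla to Mgat5 (0.71), Phf23 (0.77) and Vps29 (0.77). These are larger distances, since both receptors switch between near 0 and well above 1 CPM from library to library.

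The genes were placed on GRCm38 with GENCODE release M21. Cd28 (ENSMUSG00000026012) lies at chr1:60716800-60773359, Ctla4 (ENSMUSG00000026011) at chr1:60887000-60915832 and Icos (ENSMUSG00000026009) at chr1:60977927-61000320, all on the plus strand. They form a cluster of 283.521 kb in which no other protein-coding gene lies between Cd28 and Ctla4 or between Ctla4 and Icos. Pdcd1 (ENSMUSG00000026285) lies farther along the chromosome at chr1:94038305-94052553 on the minus strand, and Btla (ENSMUSG00000052013) at chr16:45224315-45257670 on the plus strand. Ctla4, which lies between Cd28 and Icos, differed more from each of them in pattern (0.83 and 0.74) than they did from each other (0.33). Without the second anti-CTLA-4 library these distances were 0.62, 0.58 and 0.34. Cd28 and Icos then varied about their own means by 0.28 and 0.29, so they were no closer to each other than to a flat pattern.

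The ligand genes were counted in the same sorted cells, so their levels say nothing of the tumour as a whole. None of the 6 tested of 8 ligand genes passed the test in any comparison (lowest adjusted p = 0.359, edgeR). Cd274, which encodes the PD-1 ligand PD-L1, was found in all libraries, with 367, 192 and 549 CPM under anti-CTLA-4, 842, 305 and 688 CPM under anti-PD-1, and 527, 680 and 606 CPM in Control mice. Cd80, which encodes a ligand of CD28 and CTLA-4, had 41.0, 17.0 and 26.4 CPM under anti-CTLA-4, 63.4, 0.0906 and 107 CPM under anti-PD-1, and 46.7, 130 and 236 CPM in Control mice.

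In CPM, Cd80 in all 3 anti-CTLA-4 mice lay below all Control mice, where 11.9% of all genes tested did not overlap and 10.4% were lower without overlap. Divided by the normalization factors (0.407 and 1.18), the second anti-CTLA-4 value lies slightly above the first Control value. The fitted change of Cd80 was -1.69 (SE 2.39, adjusted p = 1.0, edgeR). The dendritic cell markers, of a cell type that carries CD80, summed to 50.4 to 250 CPM under anti-CTLA-4 and 7.27 to 75.6 CPM in Control mice, with Flt3 and Siglech at 0 in all libraries. The macrophage or monocyte markers summed to 419 to 4990 CPM under anti-CTLA-4 and 186 to 661 CPM in Control mice. Their part in the Cd80 level was not tested.

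Cd86, the gene of the other ligand of CD28 and CTLA-4, reached 47.8 CPM in 1 anti-CTLA-4 mouse, 6.16 CPM in 1 anti-PD-1 mouse and 61.3 CPM in 1 Control mouse, and was under 1 CPM elsewhere. Icosl, the gene of ICOS ligand, was above 1 CPM in 1 anti-PD-1 mouse (85.0 CPM) and 2 Control mice (21.1 and 3.96 CPM). Pdcd1lg2, which encodes PD-L2, reached 34.95 CPM in 1 anti-CTLA-4 mouse and 8.40 CPM in 1 anti-PD-1 mouse and was 0 in all Control mice. Tnfrsf14, which encodes HVEM, had 28.5, 0.0843 and 77.4 CPM under anti-CTLA-4, 0.0392, 0.0302 and 56.1 CPM under anti-PD-1, and 0.0241, 0.0643 and 0.0279 CPM in Control mice. The Control values of Tnfrsf14, the second anti-CTLA-4 value and the first 2 anti-PD-1 values did not exceed 3 counts. Cd160 and Tnfsf14, which encode further HVEM binding partners, had no count in any library.

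**Figure D5:**
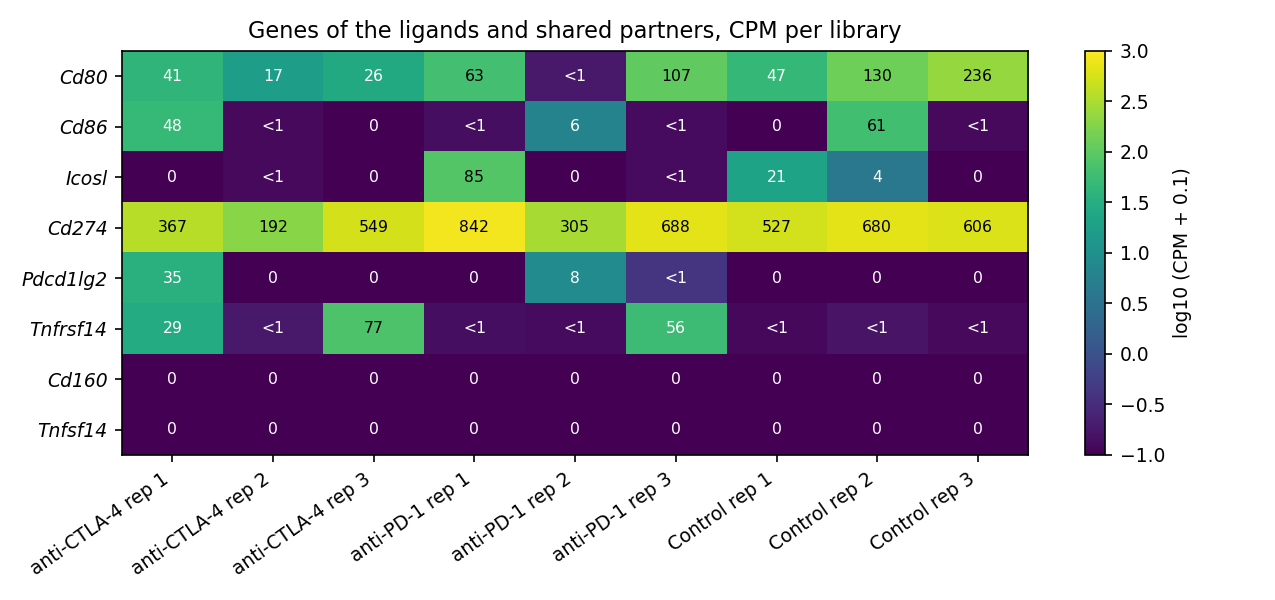
CPM of the 8 genes of ligands and shared partners in each library, printed in each cell and coloured by log10 (CPM + 0.1). Cd274 is at 192 CPM or more in all 9 libraries, Cd80 is above 1 CPM in 8 of them, and Cd160 and Tnfsf14 are at 0 throughout.

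Genes that work with these receptors were taken from 5 further lists. Of 20 genes of costimulatory signalling 19 were tested, of 6 inhibitory phosphatases 6, of 11 genes of CTLA-4 trafficking 9, of 14 regulators of the receptors 14 and of 13 targets of costimulation 11. None was called higher or lower in any comparison (lowest adjusted p = 0.299, edgeR). Of all 72 listed genes, ligands included, 15 reached 5 CPM in every library.

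For signalling below CD28 and ICOS, the median fitted log2 change was -0.17 for anti-CTLA-4 against Control and 0.16 for anti-PD-1 against Control, beside 0.01 and 0.07 over all genes tested. The medians without the second anti-CTLA-4 library were 0.24 and 0.13, beside -0.12 and 0.03 over all genes tested. Tbk1, a kinase that acts below ICOS, had 108, 0.0843 and 0.0306 CPM under anti-CTLA-4 and 146, 147 and 177 CPM in Control mice, without overlap (adjusted p = 0.894, edgeR). Grb2, an adaptor that binds the CD28 tail, had 0.235, 36.2 and 19.5 CPM under anti-PD-1 and 145, 114 and 72.0 CPM in Control mice, also without overlap (adjusted p = 1.0, edgeR). Akt2, a kinase below PI3-kinase, was at or under 0.0604 CPM in all anti-PD-1 mice and at 4.19, 13.5 and 117 CPM in Control mice (adjusted p = 0.823, edgeR). Against Control, 2 of the 19 genes were lower without overlap under anti-CTLA-4, beside 10.4% of all genes tested. Under anti-PD-1 it was also 2 of 19, beside 7.33% of all genes tested. Rltpr, whose protein links CD28 to NF-kappaB signalling, reached 373 CPM in the second anti-CTLA-4 library and 116 CPM or less elsewhere, and its change for anti-CTLA-4 against Control was 2.85 with that library and -0.53 without it.

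Inhibitory phosphatases, among them those that PD-1, BTLA and CTLA-4 engage, had median changes of 0.63 for anti-CTLA-4 against Control and 0.17 for anti-PD-1 against Control, and of 0.43 and 0.16 without the second anti-CTLA-4 library. Ptpn11, which encodes the PD-1 partner SHP-2, had 112, 202 and 25.8 CPM under anti-CTLA-4, 149, 0.212 and 78.7 CPM under anti-PD-1, and 58.1, 152 and 0.922 CPM in Control mice, with overlap of all groups. Ppp2ca, the catalytic subunit gene of the phosphatase PP2A, stood between 75.1 and 413 CPM in the 9 libraries. Ppp2r1a, its scaffold subunit gene, was under 1 CPM in the second anti-CTLA-4 library and between 15.7 and 272 CPM in the others.

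CTLA-4 is held mostly inside the cell, and its surface level depends on recycling. The trafficking list had median changes of 0.69 for anti-CTLA-4 against Control and -0.58 for anti-PD-1 against Control, from 9 genes. Without the second anti-CTLA-4 library these were -0.71 and -0.60, so that 1 library decided the sign of the median for anti-CTLA-4 against Control. Lrba, whose protein protects CTLA-4 from lysosomal breakdown, had 187, 0.562 and 253 CPM under anti-CTLA-4, 625, 163 and 379 CPM under anti-PD-1, and 345, 467 and 635 CPM in Control mice. All anti-CTLA-4 values of Lrba lay below all Control values, and the fitted change of -1.54 (SE 1.24) did not pass the test (adjusted p = 0.765, edgeR). The Lrba change without the second anti-CTLA-4 library was -0.94 (adjusted p = 0.685, edgeR). Ap2m1, the subunit gene of the AP-2 adaptor that takes CTLA-4 from the surface, had 8.70, 0.0906 and 0.468 CPM under anti-PD-1 and 187, 153 and 22.2 CPM in Control mice, without overlap (adjusted p = 0.973, edgeR). Lrba was the 1 of 9 trafficking genes lower without overlap under anti-CTLA-4 than in Control mice, beside 10.4% of all genes tested. Ap2m1 was the 1 of 9 under anti-PD-1, beside 7.33% of all genes tested.

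Rab8a, a GTPase gene of the secretory route, had 104, 963 and 193 CPM under anti-CTLA-4 and 230, 208 and 432 CPM in Control mice. Its high value came from the second anti-CTLA-4 library, and its fitted change was 1.91 (SE 1.03, adjusted p = 0.439, edgeR), which turned to -0.77 without that library. Trat1, which encodes the adaptor TRIM, had 267, 0.0843 and 28.3 CPM under anti-CTLA-4, 0, 0.0302 and 0.0292 CPM under anti-PD-1, and 44.0, 42.1 and 0.0279 CPM in Control mice. It was thus not above 3 counts in any anti-PD-1 mouse, and its adjusted p for anti-CTLA-4 against anti-PD-1 was 0.299 by edgeR.

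Among the regulators, Foxp3 had a fitted change of 0.48 (SE 0.46, adjusted p = 1.0, edgeR) for anti-PD-1 against Control. Tox, which encodes a transcription factor of chronically stimulated T cells with high PD-1, had 225, 389 and 55.1 CPM under anti-CTLA-4, 156, 217 and 170 CPM under anti-PD-1, and 11.1, 247 and 27.3 CPM in Control mice, and the groups overlapped. Fbxo38, which encodes a ubiquitin ligase subunit that targets PD-1, had 484 CPM in the second anti-CTLA-4 library, the same library in which Pdcd1 was highest, and 0.0906 to 193 CPM in the other 8. Zc3h12a, which encodes the RNase Regnase-1, and Itch, a ubiquitin ligase gene, were each under 1 CPM in 5 libraries. The list's median change was -0.13 for anti-CTLA-4 against Control and -0.0049 for anti-PD-1 against Control, and -0.32 and -0.02 without the second anti-CTLA-4 library.

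Targets of costimulation had median changes of 0.74 for anti-CTLA-4 against Control and 0.88 for anti-PD-1 against Control, and of 0.35 and 0.86 without the second anti-CTLA-4 library. In anti-PD-1 mice 2 of 11, Maf and Il10, were higher than in Control mice without overlap, as were 3.45% of all genes tested. Il10, a regulatory cytokine gene named here after its values were seen, had 98.5, 43.1 and 13.85 CPM under anti-PD-1 and 0.0241, 0.0643 and 13.81 CPM in Control mice, so the closest mice of the groups were nearly level. Maf, a transcription factor gene that ICOS signals promote, had 700, 95.0 and 41.9 CPM under anti-CTLA-4, 658, 601 and 956 CPM under anti-PD-1, and 362, 548 and 547 CPM in Control mice. All anti-PD-1 values of Maf lay above all Control values, though the anti-CTLA-4 mice spanned both. Nfkb1 had 269, 3.23 and 344 CPM under anti-CTLA-4 and 310, 762 and 532 CPM in Control mice, and the groups overlapped. Il21 and Cd40lg, the genes of a helper cytokine and of CD40 ligand, were under 1 CPM in most libraries.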

How the data were processed

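RNA of ICOS+ CD4 T cells from individual mice was amplified and read as 76-nt pairs, per the labels' protocols. The authors deposited raw counts per gene symbol, without normalization. Per the submitters' processing notes, the tools were TopHat2, HTSeq and DESeq2 and the build GRCm38. Versions are not stated in the sources used here. The deposited counts carry "firstStrand" in their name, and the strand setting is not stated otherwise.

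Counts were tested in edgeR 4.0.16 (R 4.3.3) with TMM factors, filterByExpr at a minimum count of 10 (7858 of 45808 genes), a robust quasi-likelihood fit of the 3 groups over 9 libraries, and Benjamini-Hochberg adjustment. Each standard error is the absolute log2 change divided by the root of F, an approximation. TPM used GENCODE M21 exon lengths, held by 91.5% of symbols. DESeq2 1.42.0 and limma 3.58.1 (voom with quality weights) were alternatives. HTSeq summary entries (59.3% to 67.1% of all counts) were left out. No pair of the 36 agreed within sampling noise. The labels name no batch.

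The members and lists were chosen with earlier results of these data known. Named genes were the members, the 3 most alike to each with a mean of at least 20 CPM, all ligands, called list members, and the 2 of each list with the smallest p per comparison. Intervals and limits cover counting error only.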

Additional observations from a re-analysis of the deposited data

How the results depend on the processing

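None of the 15 member changes passed the threshold in the 279 of 285 alternatives that gave an adjusted p (lowest adjusted p = 0.345). DESeq2 gave none for Ctla4 and Pdcd1, and 34 alternatives turned a sign. Signs never turned for Cd28, Icos, Ctla4 and Pdcd1 in anti-PD-1 against Control, nor for Ctla4 in anti-CTLA-4 against anti-PD-1. Ratios of Ctla4, Icos and Cd28 within a library moved by less than their spread with a pseudocount of 5 in place of 1. That had to be so, since these genes were at 464 CPM or more in every library.

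For anti-CTLA-4 against Control, RLE factors gave 1.28 for Cd28 and 1.44 for Icos, and DESeq2 gave 1.13 and 1.28. Ctla4 turned to -0.55 with library totals, -0.41 scaled to T cell markers and -0.15 by voom. Pdcd1 turned to -4.07 by voom. Btla turned to -0.0048 with totals and -0.13 scaled to T cell markers. For anti-PD-1 against Control, Btla was 0.0039 under RLE and 0.0073 by DESeq2. For anti-CTLA-4 against anti-PD-1, RLE gave 0.58 for Cd28 and 0.67 for Icos, DESeq2 gave 0.43 and 0.51, and Pdcd1 turned to -0.20 with totals and -7.85 by voom. RLE factors moved the median change of all genes to 0.56, 0.26 and 0.45 in the 3 comparisons, and library totals moved it to -0.34, -0.12 and -0.21. The cause of the reversals was not tested.

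Leaving out 1 library gave, for anti-CTLA-4 against Control, -0.65 to 0.034 for Cd28, -0.18 to 0.26 for Ctla4, -8.92 to 3.38 for Pdcd1 and -1.15 to 1.83 for Btla. It gave -7.97 to 1.48 for Btla in anti-PD-1 against Control. For anti-CTLA-4 against anti-PD-1 it gave -10.17 to 1.71 for Pdcd1 and -0.95 to 8.13 for Btla.

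Genes past the threshold numbered 29 for anti-CTLA-4 against Control, 6 for anti-PD-1 against Control and 65 for anti-CTLA-4 against anti-PD-1. In that order, DESeq2 called 800, 750 and 952, no filter 64, 2 and 98, a filter of 5 CPM 18, 3 and 44, fits of 2 groups 1, 0 and 31, totals 0, 0 and 6, T cell scaling 4, 0 and 24, voom 0, 2 and 0, and RLE 0, 0 and 0. A threshold of 0.10 gave 50, 9 and 105, and leaving out receptor segments, mitochondrial and ribosomal protein genes 29, 3 and 60. Leaving out 1 library gave 0 to 79, 0 to 5 and 6 to 145, with 0 for anti-CTLA-4 against Control without the second anti-CTLA-4 library and 0 for anti-PD-1 against Control without the third Control library. Where edgeR or voom called 0, unadjusted p under 0.05 was reached by 270 to 1261 genes.

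With the replicate number as a block, the calls were 10, 1 and 12, and Pdcd1 turned to -0.72 for anti-CTLA-4 against Control and -5.49 for anti-CTLA-4 against anti-PD-1. Same-numbered libraries correlated at -0.03 to 0.02 after centring, and differently numbered libraries at -0.02 to 0.03. These values show no pairing of the mice by number. They cannot exclude one, since single genes came and went between libraries.

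Values of the gene lists and of the pattern distances without the second anti-CTLA-4 library, and Ctla4 relative to Foxp3 and to T cell markers, were alternatives chosen after seeing the data.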
